A study of Mus musculus with 7 samples.

Results

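The apolipoprotein L genes described here are Apol7c, Apol8, Apol9a, Apol9b, Apol10a, Apol10b, Apol11a and Apol11b, 8 of the 17920 genes in a table of RNA levels in mouse spleen. They were picked by symbol after their levels in these same libraries, by genotype and by time after lipopolysaccharide (LPS), had been seen. Every comparison of the 8 between groups is therefore a description, with no test. All 8 had a mean level of at least 1 FPKM, so none was lost to the filter on low values. Apol10a and Apol11a reached that mean only through the GdX-deficient libraries. FPKM is a fragment count corrected for transcript length and library size, so levels of different genes can be set side by side.

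The study asked what the loss of GdX does to gene expression in the spleen during the response to LPS, a bacterial cell wall component. GdX, encoded by Ubl4a on the X chromosome, is a small ubiquitin-like protein that helps to deliver tail-anchored proteins to their membrane. All mice were labelled C57BL/6 and 8 weeks old, and all received 20 mg/kg LPS into the peritoneal cavity. The groups were wild type at 90 min (2 libraries), GdX-deficient at 90 min (2), wild type at 6 h (2) and GdX-deficient at 6 h (1 library). The mutant is written as GdX-/- among the sample traits and as GdX-/Y in the treatment text. The labels name no promoter, Cre driver or cell type that would limit the deletion. Spleen without LPS was not analysed here, and no level can be compared with that before LPS. The design text counts 4 wild-type and 3 mutant mice, as many as there are libraries of each genotype.

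Apolipoproteins L are small amphipathic proteins that bind lipids and membranes. The human member APOL1 circulates on lipoprotein particles and kills trypanosomes by opening channels in their membranes, while most others stay inside the cell. Many genes of the family are induced by interferons and by Toll-like receptor ligands such as LPS. In mice the family has expanded into a cluster of copies that do not match the human genes singly. Mouse Apol9a and Apol9b are interferon-induced genes with reported antiviral activity, and Apol7c has been described in dendritic cells that take up antigen for cross-presentation. For Apol8, Apol10a, Apol10b, Apol11a and Apol11b, no role is given here.

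The 8 genes lie together on chromosome 15. In the GENCODE M21 annotation of GRCm38 they are all protein-coding and span chr15:77403789-77757003, a stretch of 353 kb that holds 2 further family genes, Apol7b and Apol7e. In order along the chromosome, they are Apol9a (chr15:77403789-77411135, minus strand), Apol10a (chr15:77477047-77491069, plus) and Apol11a (chr15:77508271-77518051, plus). Next come Apol7c (chr15:77524852-77533316, minus), Apol10b (chr15:77583819-77596125, minus) and Apol11b (chr15:77633946-77643286, minus). Apol9b (chr15:77729039-77736382, plus) and Apol8 (chr15:77747798-77757003, minus) close the row, and Myh9, a non-muscle myosin heavy chain gene, follows.

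The promoters are shown because members of the cluster moved in different ways while sharing a sequence near their starts. RefSeq promoter windows of GRCm38.p6, from 250 bases before to 50 bases after each start, were found for all 8 genes and searched on both strands. The core of the interferon-stimulated response element, taken as GAAA, any 2 bases and GAAA, was present in 7 of the 8 windows and in 3.44% of all 32851 windows of that length. The exception was Apol8. In each of the 7 genes the match read as TTTC, 2 bases and TTTC on the gene's own strand. The 30 bases around it follow, 5′ to 3′ on the gene's strand, with the match, or 2 overlapping matches, in capitals.
Apol9a: gaggtgagacTTTCAGTTTCCATTTCccag
Apol9b: gaggtgagacTTTCAGTTTCCATTTCccag
Apol7c: gaaatggggcTTTCTCTTTCCTTTTCtgct
Apol10a: gaaatttttcTTTCACTTTCatgcattggg
Apol10b: gaaattttacTTTCATTTTCgtgcactgag
Apol11a: gaatttttacTTTCACTTTCatgcactggg
Apol11b: gaatttttacTTTCACTTTCatgcactggg

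The stretch shown for Apol9a lies at chr15:77411120-77411149 on the minus strand and that for Apol9b at chr15:77729025-77729054 on the plus strand. Apol7c has its stretch at chr15:77533351-77533380 (minus), Apol10a at chr15:77476986-77477015 (plus) and Apol10b at chr15:77596110-77596139 (minus). Those of Apol11a and Apol11b are chr15:77508209-77508238 (plus) and chr15:77643317-77643346 (minus). Apol9a and Apol9b read the same over these 30 bases, and so do Apol11a and Apol11b. The whole windows of Apol11a and Apol11b were identical at 298 of 300 bases. Apol7c, Apol9a and Apol9b carried 2 overlapping matches each, and the other 4 genes 1 each.

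The 150 bases before the start of Apol11b, which had the largest genotype difference of the 8 genes on the log2(FPKM + 1) scale at 6 h, are printed to show this match in its setting. They run over chr15:77643287-77643436 on the minus strand, in the RefSeq window of GRCm38.p6, with the match to this element in capitals.
Apol11b: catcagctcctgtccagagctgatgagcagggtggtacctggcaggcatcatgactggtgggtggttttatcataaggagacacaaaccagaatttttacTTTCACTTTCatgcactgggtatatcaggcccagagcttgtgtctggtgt

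Other motifs divided the genes differently. The gamma-activated sequence TTCNNNGAA was found in the windows of Apol10a, Apol11a and Apol11b, and in 8.30% of all windows. The loose NF-kB core, taken as GGG, any 5 bases and CC, was in all 8 and in 50.8% of all windows. AGATAA, a form of the sequence bound by GATA factors of blood cells, was in none of the 8 and in 11.2% of all windows. Other forms of that sequence were not searched for. The bases printed for Apol11b hold TTATCA, which reads TGATAA on the other strand, so a GATA site is not excluded. These matches describe letters only.

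The libraries held an estimated 19250000 to 21450000 mapped fragments, read from the steps of low FPKM values. Globin genes took 7.73% to 30.9% of a library's FPKM sum. The spread between replicates was widest at 6 h in wild type, where 997 genes differed at least 2-fold between the 2 libraries, against 674 for GdX-deficient and 140 for wild type at 90 min. Ubl4a itself was lower in the GdX-deficient libraries only in part: 5.62 and 7.50 FPKM in wild type against 4.03 and 5.69 at 90 min, and 11.88 and 14.01 against 10.56 at 6 h, with overlap at 90 min. The overlapping entry Gm44504 stood at 14.52 to 51.10 FPKM in wild type and 0.66 to 1.86 in GdX-deficient libraries. Hbb-b1, an adult beta-globin copy that some mouse strains carry and others lack, stood at 6.70 to 13.80 FPKM in wild type and 16576.65 to 44997.98 in GdX-deficient libraries. Genotype and a difference in genetic background between the groups therefore cannot be told apart, although all samples carry the same strain label. Of the spleen list, Spic, Cr2 and Cd79a stood at 11.66 FPKM or more in every library. Tlx1, a transcription factor that marks the spleen's stroma, stood at 0.52 to 0.96 in 6 libraries and at 6.21 in the GdX-deficient library at 6 h. Marker genes of fat tissue summed to at most 4.07 FPKM and those of pancreas to at most 8.52 FPKM.

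Differences between groups are given on the scale of log2(FPKM + 1), which understates changes of low genes, and standard errors (SE) come from a fit over all genes and libraries. Groups are said to stay apart where every library of the higher group was above every library of the lower. With 1 or 2 libraries a group this happens often. Among the 11378 genes tested, the GdX-deficient libraries lay wholly above wild type in 24.1% at 90 min and in 54.9% at 6 h, and wholly below in 23.4% and 25.3%. Values in 6 of the 8 family genes lay wholly above wild type at 90 min, and those of all 8 at 6 h. Apol7c lay wholly below at 90 min, and Apol9a overlapped. The 6 genes higher at 90 min were higher at 6 h too, where 19.0% of all genes tested were apart in this way at both times. Since these contrasts were in view when the genes were picked, nothing is read from these counts.

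The median difference between genotypes over the 8 genes was 0.90 at 90 min, against 0.07 over all genes tested. It was 1.19 at 6 h, against 0.32. Leaving out replicate 1 of GdX-deficient at 90 min brought the former to 0.56. Quantile normalization, which moved the 6 h median of all genes to -0.02, brought that of the 8 genes to 0.70. The 6 h value rests on 1 GdX-deficient library and has no replicate check.

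**Figure D1:**
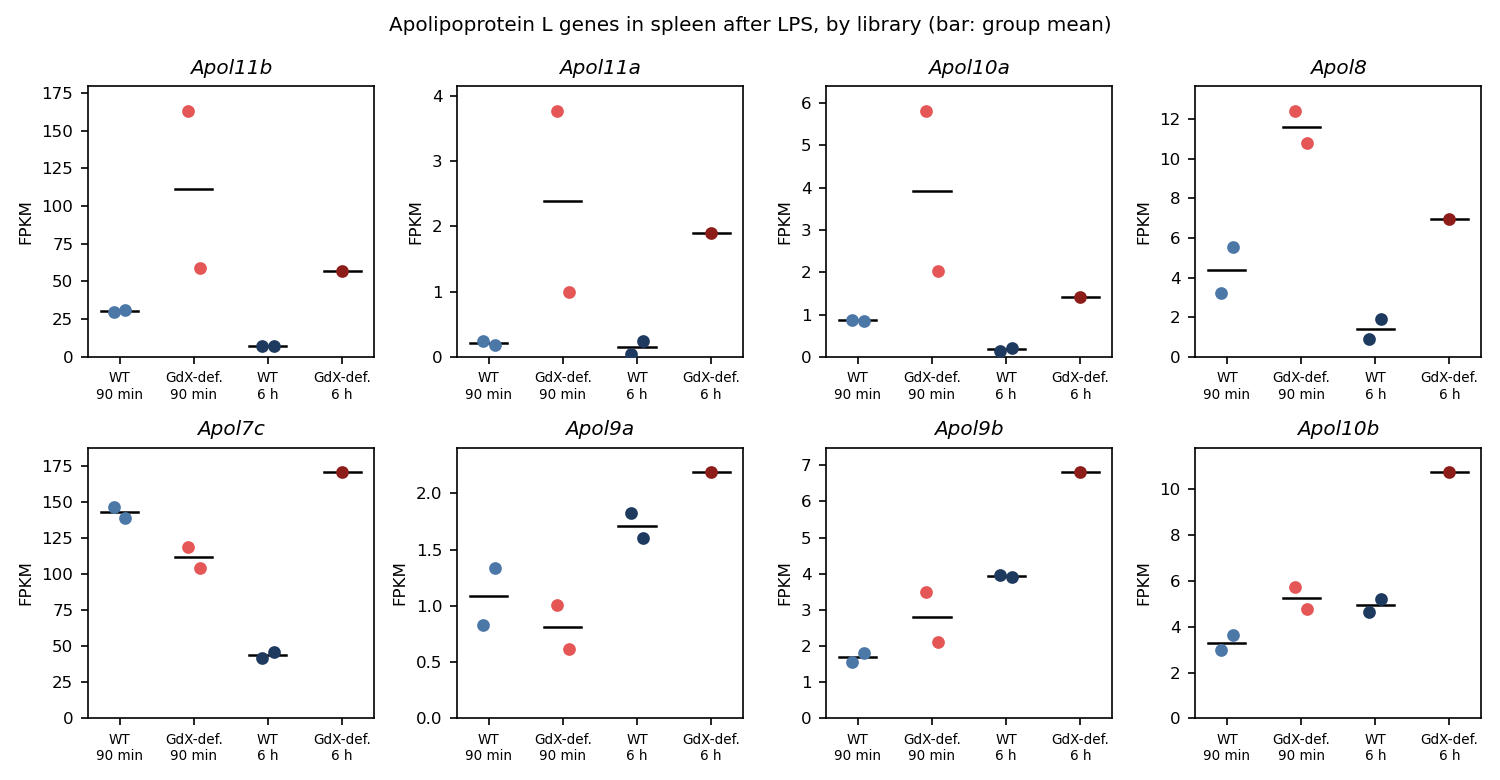
FPKM of the 8 genes (vertical axes from 0, each on its own scale) in the 4 groups, with 1 point per library and a bar at the group mean. By mean, Apol11b, Apol11a, Apol10a and Apol8 were lowest in wild type at 6 h, Apol7c was lowest in wild type and highest in GdX-deficient spleen at 6 h, and Apol9a, Apol9b and Apol10b were highest at 6 h.

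With time, 3 of the 8 genes lay wholly higher at 6 h in wild type and 4 wholly lower, while 30.3% and 27.6% of all genes tested did so. In GdX-deficient spleen 4 lay higher and 3 lower, where the shares over all genes tested were 56.8% and 15.8%. The median time difference was -0.38 in wild type, against 0.05 over all genes tested, and 0.26 in GdX-deficient spleen, against 0.25. The value of 0.26 became 0.62 without replicate 1 of GdX-deficient at 90 min and -0.10 without replicate 2. Under quantile normalization the medians were -0.13 in wild type, against 0.07 over all genes tested, and 0.06 in GdX-deficient spleen, against 0.02.

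Over the 7 libraries the genes were sorted into 3 courses by their group means. In Apol8, Apol10a, Apol11a and Apol11b the mean was highest in GdX-deficient spleen at 90 min and lowest in wild type at 6 h, although the times overlapped for Apol11a. Apol7c differed between genotypes in opposite directions at the 2 times. Apol9a, Apol9b and Apol10b were higher at 6 h than at 90 min in both genotypes.

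Apol11b (Entrez 328563) was the most abundant gene of the first course. It stood at 29.88 and 30.79 FPKM in wild type at 90 min and at 163.38 and 59.05 in GdX-deficient libraries. At 6 h it stood at 6.85 and 7.38 in wild type and 57.20 in the GdX-deficient library. Every GdX-deficient library was above every wild-type library, the 6 h one included. The wild-type pairs were close together, while the GdX-deficient pair at 90 min lay far apart. The mean FPKM of GdX-deficient libraries was 3.67 times that of wild type at 90 min and 8.04 times at 6 h. On the log2 scale the difference was 1.66 (SE 0.41) at 90 min and 2.84 at 6 h. Without replicate 1 of GdX-deficient at 90 min, the first of these was 0.94. From 90 min to 6 h the difference in wild type was -1.95 (SE 0.41) on that scale, with no overlap. In GdX-deficient spleen it was -0.77, with -0.05 without replicate 1 at 90 min and -1.50 without replicate 2.

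Apol11a (626615), its neighbour in sequence, was expressed far less. Its levels were 0.24 and 0.18 FPKM in wild type and 3.77 and 0.99 in GdX-deficient spleen at 90 min, then 0.05 and 0.24 against 1.90 at 6 h. All 3 GdX-deficient libraries were above all 4 wild-type libraries, and the 2 wild-type groups overlapped. The lowest value stands for about 2 fragments, and the highest for about 144, so ratios against wild type are poorly fixed and are not given. The log2 difference between genotypes was 1.35 (SE 0.36) at 90 min, 0.72 without GdX-deficient replicate 1, and 1.35 at 6 h. With a pseudocount of 0.1 these were 2.73 and 3.15, and quantile normalization brought the 6 h value to 0.88. Between the times the log2 difference was -0.08 (SE 0.36) in wild type and -0.09 in GdX-deficient spleen, with overlap in both. The GdX-deficient value rested on the 90 min replicates, and was 0.54 without replicate 1 and -0.72 without replicate 2.

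Apol10a (245282) had 0.88 and 0.85 FPKM in wild type and 5.82 and 2.02 in GdX-deficient spleen at 90 min. At 6 h it had 0.14 and 0.21 against 1.41. Here too every GdX-deficient library exceeded every wild-type library. The order from high to low was GdX-deficient at 90 min, GdX-deficient at 6 h, wild type at 90 min and wild type at 6 h, with no overlap between neighbours. The genotype difference on the log2 scale was 1.28 (SE 0.35) at 90 min, 0.70 without GdX-deficient replicate 1, and 1.04 at 6 h, where 1 library stands against 2. The latter was 0.53 with quantile normalization and 2.47 with a pseudocount of 0.1. With time it differed by -0.67 (SE 0.35) in wild type and -0.91 in GdX-deficient spleen, both with no overlap. The GdX-deficient value was -0.33 without replicate 1 at 90 min and -1.50 without replicate 2, and the wild-type value was -0.42 with quantile normalization and -1.82 with a pseudocount of 0.1.

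Apol8 (239552) is the gene without the interferon element match. It stood at 3.24 and 5.56 FPKM in wild type and 12.42 and 10.79 in GdX-deficient spleen at 90 min, and at 0.92 and 1.93 against 6.94 at 6 h. Both GdX-deficient replicates at 90 min lay close together, unlike those of Apol10a, Apol11a and Apol11b. The group order was that of Apol10a, again with no overlap between neighbours. Its genotype difference was 1.25 (SE 0.34) at 90 min and 1.74 at 6 h on the log2 scale, and quantile normalization brought the latter to 1.14. With time it differed by -1.15 (SE 0.34) in wild type and -0.66 in GdX-deficient spleen, and quantile normalization brought the latter to -1.02.

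**Figure D2:**
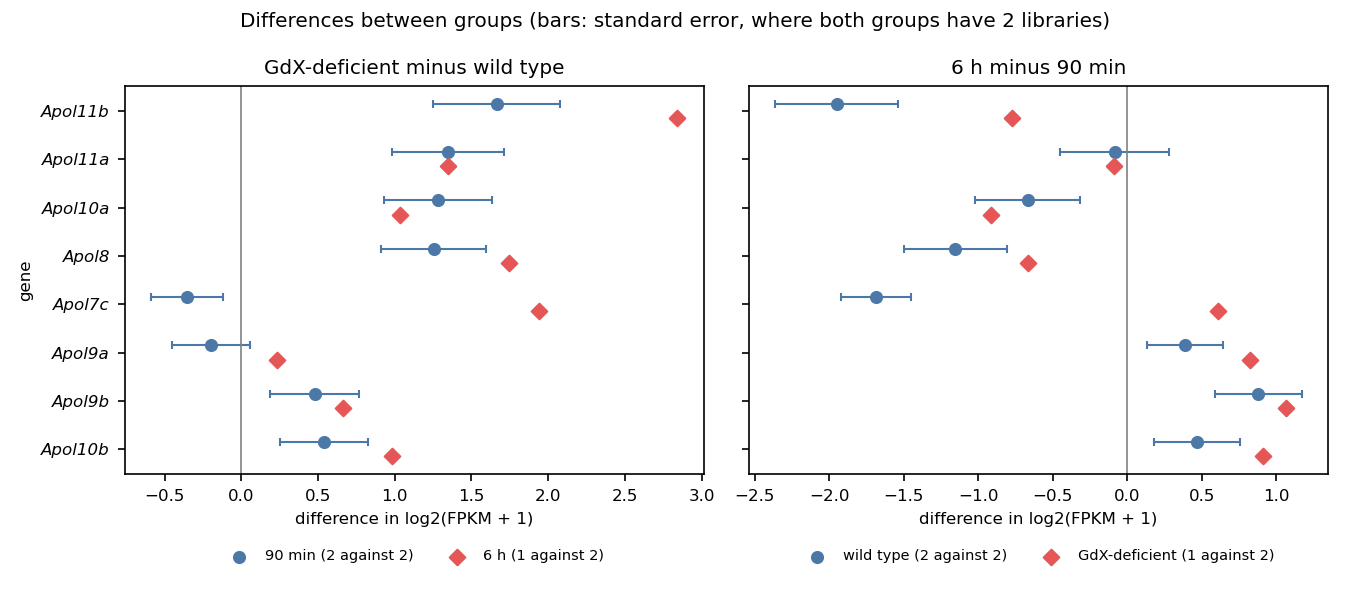
Differences in log2(FPKM + 1) between genotypes (left) and between times (right) for the 8 genes, with standard errors where both groups have 2 libraries. Apol11b reaches 1.66 and 2.84 between genotypes, and Apol7c takes opposite signs, -0.35 at 90 min and 1.94 at 6 h.

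Some of the genes nearest in profile to Apol11b, Apol10a and Apol11a were red-cell genes, which is a description with no test. The nearest genes by profile, out of 10941 searched, were found by the root mean square distance between log2(FPKM + 1) profiles over the 7 libraries, each centred on its own mean. For Apol11b they were Slc4a1 (the anion exchanger of the red-cell membrane, distance 0.47), Trim10 (0.53) and Rhd (a blood group antigen, 0.55), against a median distance of 1.48 to all genes searched. Apol10a was nearest to Alas2 (the first enzyme of haem synthesis in red-cell precursors, 0.33), Smox (spermine oxidase, 0.33) and Fam46c (0.34). Slc43a1 (an amino acid transporter, 0.16) and Tspan33 (a tetraspanin, 0.17) stood nearest to Apol8. For Apol11a the list read Mpp1 (a red-cell membrane scaffold protein, 0.41), Kif4 (a mitotic kinesin, 0.43) and Slc22a4 (a transporter, 0.44). Apol11a differed from the red-cell markers described next in that its times overlapped in both genotypes. The GdX-deficient replicates at 90 min lay further apart for Apol10a, Apol11a and Apol11b than for any of those markers.

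A list of 6 red-cell marker genes, among them Alas2 and Slc4a1, was tested with the other genes. Their FPKM summed to 530 to 604 in wild type and 1006 to 1215 in GdX-deficient spleen at 90 min, then to 174 to 246 against 584 at 6 h. All 6 fell from 90 min to 6 h in wild type, with adjusted p-values of at most 0.0264 and a median log2 difference of -1.70 (limma, adjusted over all genes tested, where 10.7% of genes were called and 6.32% fell). Between genotypes at 90 min none of the 6 passed the threshold, with a median of 0.94 and adjusted p-values from 0.52 to 0.621, although all 6 had an unadjusted p under 0.05. Over all genes tested, limma called 0.0176% in that comparison. Leaving out wild-type replicate 1 or 2 at 6 h gave 2 and 3 calls among the 6, and a fit of only the 4 libraries gave 3. For the change with time, 4 of the 6 were called without wild-type replicate 1 at 90 min or at 6 h, 3 without wild-type replicate 2 at 90 min, and 2 with no filter on low values. With time as a covariate, 0 of the 6 were called between genotypes, with a median of 1.47 and adjusted p-values from 0.0915 to 0.101, but 6 were called without GdX-deficient replicate 1 at 90 min and 4 without wild-type replicate 2 at 90 min. At 6 h the single GdX-deficient library was above both wild-type libraries for all 6 markers, with a median of 2.14. No marker of the list was at 0. The part of red-cell RNA in the course of Apol8, Apol10a, Apol11a and Apol11b was not tested, and in whole spleen a change in cell number and a change in RNA per cell cannot be told apart.

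Apol7c (108956) was the most abundant of the 8 genes in 6 of the 7 libraries, all but replicate 1 of GdX-deficient at 90 min. It is the member described in dendritic cells of the type that cross-presents antigen. At 90 min it stood at 146.40 and 139.13 FPKM in wild type and 118.78 and 104.45 in GdX-deficient spleen. At 6 h it stood at 41.48 and 45.97 in wild type and 170.69 in the GdX-deficient library. Neighbouring groups did not overlap: the order was GdX-deficient at 6 h, wild type at 90 min, GdX-deficient at 90 min and wild type at 6 h.

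The genotype difference of Apol7c on the log2 scale was -0.35 (SE 0.24) at 90 min and 1.94 at 6 h. Quantile normalization took these to -0.18 and 2.18 and left both signs. In mean FPKM the GdX-deficient library at 6 h held 3.90 times the wild-type level. From 90 min to 6 h the log2 difference was -1.69 (SE 0.24) in wild type, a mean FPKM 3.27 times lower, and 0.61 in GdX-deficient spleen. Of all genes tested, 6.82% lay below wild type at 90 min and above it at 6 h in this way, and 9.14% took opposite directions with time in the 2 genotypes with no overlap in either. This reversal of Apol7c was not tested, since its values were in view when the gene was picked and GdX-deficient spleen at 6 h has 1 library.

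Genes with a profile near that of Apol7c were Kitl (stem cell factor, distance 0.13), Ltc4s (leukotriene C4 synthase, 0.17) and Efhd1 (a mitochondrial calcium-binding protein, 0.18), against a median of 0.79 to all genes searched. Kitl stood at 10.35 and 12.14 FPKM in wild type and 7.82 and 7.14 in GdX-deficient spleen at 90 min, then at 2.37 and 3.21 against 11.45 at 6 h. Wild type at 90 min and GdX-deficient spleen at 6 h overlapped, and wild type at 6 h was lowest.

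Of the 8 marker genes of type 1 dendritic cells, 7 passed the filter on low values, and Xcr1, a chemokine receptor that defines the type, stood at 0.36 to 1.63 FPKM without passing it. In wild type 3 of the 7 fell from 90 min to 6 h and none rose, where 6.32% and 4.39% of all genes tested did so. Cadm1, an adhesion molecule, fell by 1.59 (SE 0.29, adjusted p = 0.0116). Clec9a, a receptor for dead cells, fell by 1.48 (SE 0.31, adjusted p = 0.0196), and Itgae, the integrin subunit CD103, fell by 0.97 (SE 0.23, adjusted p = 0.0302). The median of the 7 was -0.97 in wild type, against 0.05 over all genes tested, and -0.39 in GdX-deficient spleen, where Apol7c had 0.61. Raising the filter to a mean of 5 FPKM left 1 call, but Clec9a and Itgae fell below that filter and were not tested. The calls also changed when single wild-type libraries were left out, which leaves 1 library in a group. Without wild-type replicate 2 at 90 min only 6 of the 7 were tested. Between genotypes at 90 min limma called none of the 7, and none of them had an unadjusted p under 0.05. At 6 h their median genotype difference was 0.87. The summed FPKM of all 8 markers was 103 to 107 in wild type and 107 to 113 in GdX-deficient spleen at 90 min, and 63.9 to 97.9 against 96.0 at 6 h. Batf3, a transcription factor, accounted for 79.54 of the 97.9 in wild-type replicate 1 at 6 h. Without Batf3, a choice made after seeing the values, the sums were 44.4 to 55.9 in wild type and 60.2 to 83.8 in GdX-deficient spleen at 90 min, and 18.3 to 27.8 against 61.0 at 6 h. Type 2 dendritic cell markers, 5 genes, had medians of the same sign as Apol7c in every comparison. Between genotypes these were -0.63 at 90 min (5 of 5 lower) and 0.71 at 6 h (5 of 5 higher). With time 4 of the 5 were lower in wild type, while in GdX-deficient spleen 4 were higher, with a median of 0.48. Median signs were also those of Apol7c for markers of plasmacytoid dendritic cells (-0.39 and 0.59 between genotypes) and endothelium (-0.24 and 1.07). The part of dendritic cell number in the level of Apol7c was not tested.

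Genes of dendritic cell maturation showed other courses. Of 14 tested, Cd83, a surface marker of mature dendritic cells, fell by 2.44 with time in wild type (SE 0.51, adjusted p = 0.0193). Il12b, a subunit of interleukin-12, fell by 3.79 (SE 0.77, adjusted p = 0.017), while Cacnb3, a calcium channel subunit, rose by 1.74 (SE 0.39, adjusted p = 0.0238), where 10.7% of all genes tested were called. With no filter on low values, none of the 14 was called with time. With time as a covariate, 0 of the 14 were called between genotypes (limma), where 0.0439% of all genes tested were called. Their median there was -0.88, and 5 had an unadjusted p under 0.05. None of the 14 passed the limma threshold between genotypes at 90 min, where 5 had an unadjusted p under 0.05. For those 14 genes the median at 90 min was -0.82, but -0.22 without GdX-deficient replicate 2 and -1.47 without replicate 1. Leaving out replicate 1 of GdX-deficient at 90 min, or either wild-type library at 6 h, gave 2 calls there. The summed FPKM of B-cell markers was also lower in wild type at 6 h than in the other groups. It was 468 to 469, against 1727 in the 6 h GdX-deficient library. At 90 min these sums were 1326 to 1466 in wild type and 1155 to 2010 in GdX-deficient spleen. Of the 6 markers, 2 fell with time in wild type (limma), where 6.32% of all genes tested fell. Cd79a alone gave 666.78 of the 1727. Pax5 went against the sum, at 105.47 and 69.00 in wild type at 6 h and 86.86 in the 6 h GdX-deficient library. Neutrophil markers summed to 2501 in that GdX-deficient library and to 721 to 1030 in wild type at 6 h. At 90 min they summed to 637 to 994 in wild type and 934 to 4201 in GdX-deficient spleen, where S100a8, a neutrophil granule gene, stood at 439.60 in replicate 1 and 1935.49 in replicate 2. A low level in wild type at 6 h was also seen in T-cell markers, which summed to 131 to 154 there, against 277 in GdX-deficient spleen at 6 h and 259 to 357 over the 4 libraries at 90 min. Red pulp macrophage markers summed to 280 to 296, against 512 and 578 to 657. Of the 6 markers tested in each of these lists, 4 fell with time in wild type, with medians of -1.14 for T cells and -1.23 for red pulp macrophages (limma), where 6.32% of all genes tested fell. For T cells 1 was called without either wild-type library at 90 min and 2 with no filter on low values. Monocyte markers summed to 98.4 to 116 in wild type at 6 h, 93.2 to 116 at 90 min and 231 in GdX-deficient spleen at 6 h. Of the 231, Ly6c2 gave 205.82. Chil3 was lower there, at 15.78 against 27.54 and 26.92 in wild type at 6 h. The part of these cell types in the levels of the apolipoprotein L genes was not tested.

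**Figure D3:**
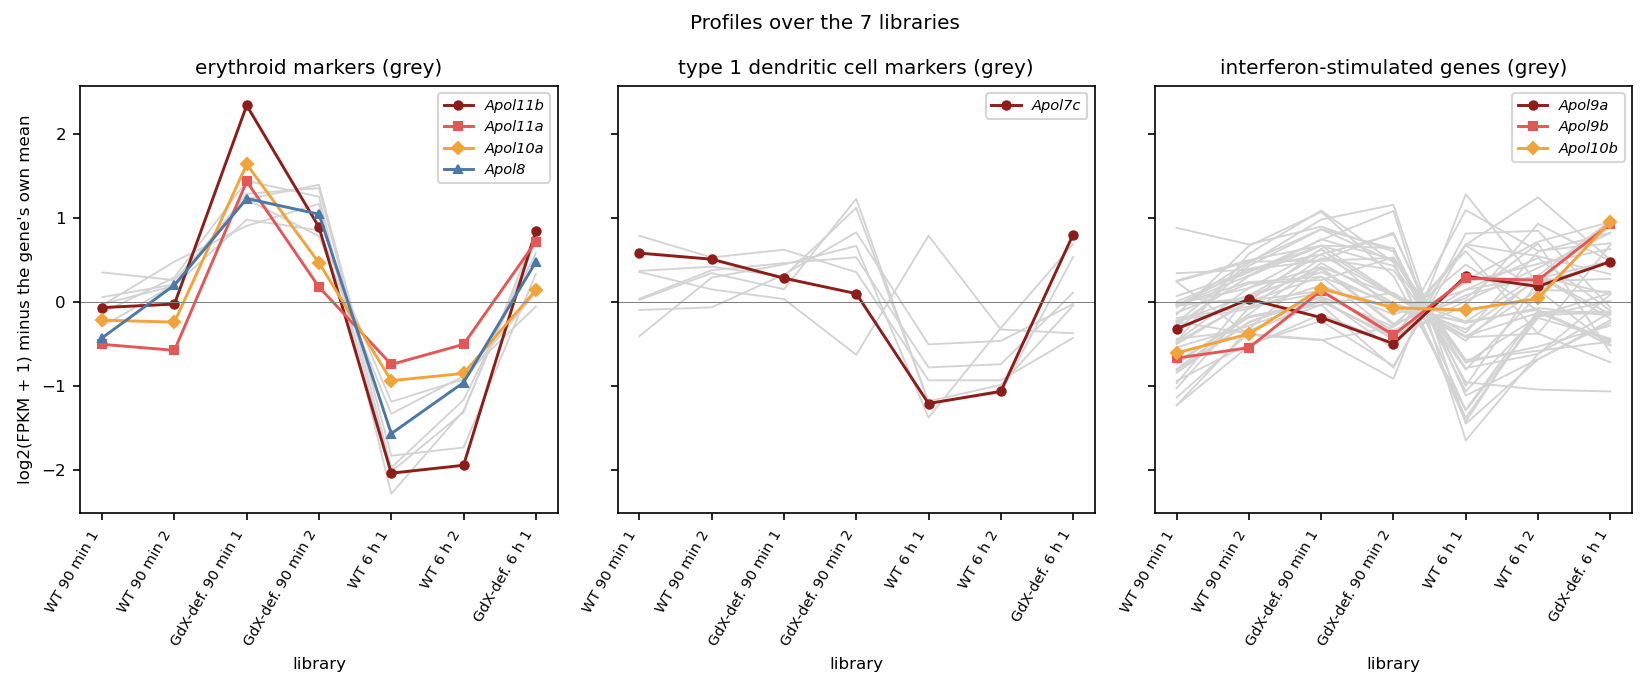
Log2(FPKM + 1) minus each gene's own mean over the 7 libraries (lines join libraries for legibility and mean no order), with family genes in colour and the genes of a list in grey. On the left, Apol11b, Apol10a and Apol8 stand lowest in wild type at 6 h, as do the 6 red-cell markers, while Apol11a overlaps between the times in both genotypes; Apol7c in GdX-deficient spleen at 6 h lies above the 7 dendritic cell markers, and Apol9a, Apol9b and Apol10b stand beside the widely spread 40 interferon-stimulated genes.

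The third course was that of Apol9b, Apol10b and, at low levels, Apol9a. Apol9b (71898), an interferon-induced gene, stood at 1.57 and 1.80 FPKM in wild type and 3.49 and 2.11 in GdX-deficient spleen at 90 min. At 6 h it had 3.97 and 3.90 in wild type and 6.81 in the GdX-deficient library. No 2 groups overlapped, and the order was GdX-deficient at 6 h, wild type at 6 h, GdX-deficient at 90 min and wild type at 90 min. The log2 difference with time was 0.88 (SE 0.29) in wild type and 1.06 in GdX-deficient spleen. Between genotypes it was 0.48 (SE 0.29) at 90 min, 0.21 without GdX-deficient replicate 1 and 0.74 without replicate 2, and 0.66 at 6 h, which quantile normalization brought to 0.10.

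Apol10b (328561) had 2.97 and 3.65 FPKM in wild type and 5.75 and 4.77 in GdX-deficient spleen at 90 min, then 4.66 and 5.23 against 10.75 at 6 h. The GdX-deficient library at 6 h was well above all others, and GdX-deficient at 90 min and wild type at 6 h overlapped. Its log2 difference with time was 0.47 (SE 0.29) in wild type and 0.91 in GdX-deficient spleen. Between genotypes it came to 0.54 (SE 0.29) at 90 min and 0.98 at 6 h, or 0.50 at 6 h after quantile normalization. Apol10b and Apol9b had the closest profiles of any 2 of the 8 genes, at a distance of 0.22. Distances did not follow the 3 courses throughout. Apol11a lay nearer to Apol10b (0.60) than to Apol11b of its own course (0.90).

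Apol9a (223672) was expressed at low levels in every library. Its levels were 0.83 and 1.34 FPKM in wild type and 1.01 and 0.62 in GdX-deficient spleen at 90 min, and 1.83 and 1.60 against 2.19 at 6 h. The genotypes overlapped at 90 min. At 6 h the GdX-deficient library was above both wild-type libraries by 0.23 on the log2 scale, but quantile normalization turned this to -0.35. The difference at 90 min was -0.20 (SE 0.25), and ran from -0.02 without wild-type replicate 2 to -0.37 without wild-type replicate 1. It was -0.04 and -0.35 without GdX-deficient replicates 2 and 1. With time it came to 0.39 (SE 0.25) in wild type and 0.82 in GdX-deficient spleen, with no overlap in either. The wild-type value was 0.21 without replicate 1 at 90 min. These values rest on an estimated 18 to 68 fragments a library.

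Near Apol9b lay Ifi44, an interferon-stimulated gene, at a distance of 0.17, Irf7, a transcription factor that amplifies the interferon response, at 0.20, and Gnb4, a G protein subunit, at 0.22. The median distance to all genes searched was 0.59. Apol10b was nearest to S1pr2 (a sphingosine phosphate receptor, 0.15), Hk3 (a hexokinase of myeloid cells, 0.16) and Cpped1 (a phosphatase, 0.17), and Apol9a to Hyal2 (a hyaluronidase, 0.08), Atp6v0c (a proton pump subunit, 0.10) and Dok1 (a signalling adaptor, 0.10). Genes that vary little lie close to each other on this measure, and the median distance for Apol9a was 0.47.

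The interferon pathway around these genes moved in both directions with time. Of 42 interferon-stimulated genes listed, 40 were tested, while Mx1 and Mx2 were not analysed here. In wild type 5 rose from 90 min to 6 h (Gbp2, Oas1a, Oas1g, Oasl2, Zbp1) and 4 fell (Ifit1, Ifit1bl1, Ifit3, Ifit3b), where 4.39% and 6.32% of all genes tested did so. Gbp2, a guanylate-binding protein of host defence, rose by 1.69 (SE 0.31, adjusted p = 0.0122). Oas1g, an antiviral oligoadenylate synthetase, rose by 1.73 (SE 0.34, adjusted p = 0.0161), and Zbp1, a sensor of Z-form nucleic acid, by 1.22 (SE 0.29, adjusted p = 0.0314). Ifit1, which binds viral RNA, fell by 1.79 (SE 0.25, adjusted p = 0.0048), and its relatives Ifit3b and Ifit3 fell by 1.26 (SE 0.27, adjusted p = 0.0198) and 1.00 (SE 0.25, adjusted p = 0.0341). The list's median was 0.18, against 0.05 over all genes tested. Leaving out single libraries gave 4 to 18 calls: 4 and 5 without wild-type replicate 1 or 2 at 90 min, 5 without either GdX-deficient library at 90 min, and 18 without wild-type replicate 2 at 6 h. With no filter on low values, 1 of the 40 was called.

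Between genotypes at 90 min limma called 0 of the 40, of which 4 had an unadjusted p under 0.05. The difference was above 0 in 35 of them, with a median of 0.29, against 0.07 over all genes tested. Leaving out 1 of the 90 min libraries gave medians of 0.11 (without GdX-deficient replicate 1), 0.52 (replicate 2), 0.13 (wild-type replicate 1) and 0.54 (replicate 2). Leaving out wild-type replicate 2 at 6 h gave 1 call. With time as a covariate, 0 of the 40 were called, against 0.0439% of all genes tested. Of the 40, 10 had an unadjusted p under 0.05, and the median was 0.26. At 6 h the single GdX-deficient library was above the wild-type mean in 23 of the 40, with a median of 0.22 that lay below the 0.32 of all genes tested. In GdX-deficient spleen the list's median with time was -0.37, where Apol9a, Apol9b and Apol10b had 0.82, 1.06 and 0.91.

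Among ligands, Ifnb1 (interferon beta) stood at 12.11 and 5.68 FPKM in wild type and 4.29 and 0.07 in GdX-deficient spleen at 90 min, then at 0.39 and 0.20 against 0.27 at 6 h. It fell by 2.86 with time in wild type (SE 0.63, adjusted p = 0.0223). Between genotypes at 90 min its difference was -1.98 (SE 0.63, adjusted p = 0.573). That comparison passed the threshold in 4 of 13 alternatives: in a fit of only the 4 libraries (adjusted p = 0.0235), without wild-type replicate 1 or 2 at 6 h (0.025 and 0.023) and without wild-type replicate 2 at 90 min (0.0284). Without GdX-deficient replicate 1 the difference was -3.13, and without replicate 2 it was -0.82. Ifng (interferon gamma) stood at 9.53 and 10.07 FPKM in wild type and 18.68 and 7.86 in GdX-deficient spleen at 90 min, then at 35.79 and 42.32 against 1.99 at 6 h. It rose by 1.89 with time in wild type (SE 0.38, adjusted p = 0.0167). The single GdX-deficient library at 6 h was thus the lowest of all 7 for Ifng, while it was the highest for Apol7c, Apol9a, Apol9b and Apol10b.

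Receptors and transcription factors of the pathway gave no call between genotypes at 90 min. Ifnar1 and Ifnar2, the receptor chains for type I interferon, differed by 0.04 (SE 0.28, adjusted p = 0.958) and -0.04 (SE 0.26, adjusted p = 0.963). Stat2, which carries the signal to the nucleus, had a difference of 1.14 (SE 0.44, adjusted p = 0.621). Irf9, its DNA-binding partner, had 0.35 (SE 0.28, adjusted p = 0.657) and Irf7 0.43 (SE 0.30, adjusted p = 0.639). The target genes Isg15 and Rsad2 had 0.06 (SE 0.33, adjusted p = 0.952) and 0.49 (SE 0.26, adjusted p = 0.621). Of the 18 interferon ligand, receptor and signalling genes tested, 1 had an unadjusted p under 0.05 in this comparison. With time in wild type 1 of the 18 rose (Ifng) and 2 fell (Ifnb1 and Ticam2, an adaptor of Toll-like receptor 4, by 1.06, SE 0.29, adjusted p = 0.049). These counts are read against the 10.7% of all genes tested that were called there, 4.39% higher and 6.32% lower, and do not set the list apart. Ticam2 passed the threshold in 4 of 12 alternatives, with adjusted p-values from 0.022 to 0.363. When the filter was raised to a mean of 5 FPKM, Ifng was still called with time, while Ifnb1 and Ticam2 fell below it and were not tested. With no filter on low values 0 were called, and Ifng had an adjusted p of 0.072 and Ifnb1 of 0.116 (limma). The calls also changed without wild-type replicate 2 at 6 h, which leaves 1 library in that group.

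Family genes outside the 8 could be tested. Apol7b and Apol7a, which lie on chromosome 15 beside Apol9a, had a time course like that of Apol7c. Apol7b stood at 5.12 and 3.76 FPKM in wild type and 3.75 and 3.53 in GdX-deficient spleen at 90 min, then at 0.00 and 0.21 against 4.75 at 6 h. It fell by 2.29 with time in wild type (SE 0.27, adjusted p = 0.00219). Apol7a fell by 1.21 (SE 0.23, adjusted p = 0.0141), from 1.78 and 1.44 FPKM to 0.06 and 0.19, and stood at 1.41 in the GdX-deficient library at 6 h. Its mean lay close to the filter on low values, and in 6 of 13 alternatives it was below the filter and not tested. It was called in the other 7. Apol7e stood at 3.51 and 6.99 FPKM in wild type and 7.97 and 12.89 in GdX-deficient spleen at 90 min, and at 3.48 and 6.05 against 12.11 at 6 h. It had a genotype difference of 0.89 (SE 0.40, adjusted p = 0.621) at 90 min and a time difference of -0.10 (SE 0.40, adjusted p = 0.904) in wild type. None of these 3 genes was called between genotypes at 90 min or with time as a covariate, where adjusted p-values ran from 0.106 to 0.57. Leaving out GdX-deficient replicate 1 at 90 min brought the value of Apol7e with time as a covariate from 0.106 to 0.0385.

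**Figure D4:**
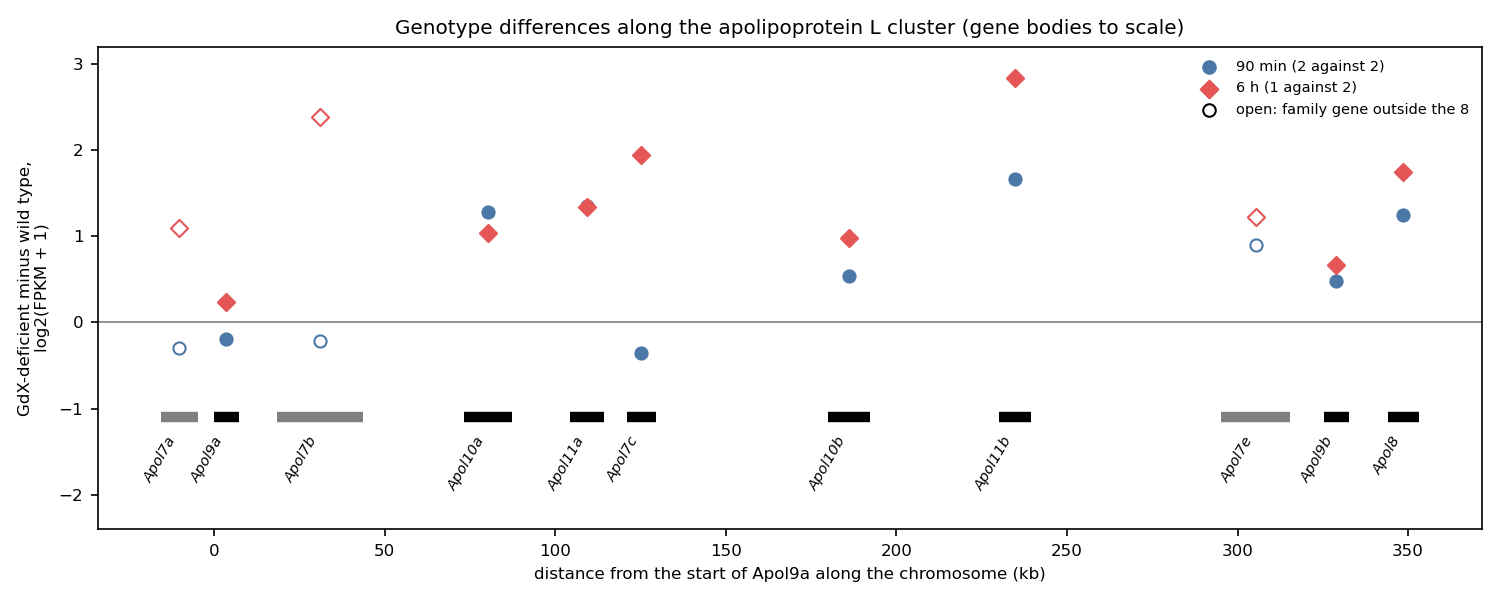
Genotype differences in log2(FPKM + 1) at 90 min (circles) and 6 h (diamonds) for the family genes of the cluster, placed by distance in kb from the start of Apol9a, with gene bodies to scale below. Filled symbols are the 8 genes and open symbols Apol7a, Apol7b and Apol7e; the values range from -0.35 for Apol7c at 90 min to 2.84 for Apol11b at 6 h.

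Position within the cluster did not sort the 3 courses. Apol7c lies between Apol11a and Apol10b, which followed the other 2 courses, and Apol9b lies next to Apol8. Of the 7 tested genes flanking the cluster, limma called none in the genotype comparison at 90 min (0 with an unadjusted p under 0.05), with time in wild type (3) or for genotype with time as a covariate (4). With time in wild type there were 3 calls with the replicate number as a block, 1 with quantile normalization, and 1 and 2 without wild-type replicate 1 or 2 at 6 h. For genotype with time as a covariate there was 1 call without GdX-deficient replicate 1 or without wild-type replicate 2 at 90 min.

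Copies of these genes resemble each other closely enough to exchange fragments when reads are assigned, so the split between them is less certain than their sum. Of all 50-base windows in annotated Apol9a transcripts, 55.3% also occur in Apol9b. The share was 15.3% for Apol11a in Apol11b, 3.99% for Apol10a in Apol10b, and 0 for Apol8 in any other family gene. Apol10a shared more of its windows with Apol11b, 4.89%, and 8.34% with any other family gene. Apol7c shared 11.9% of its windows with other family genes, mostly Apol7a, and Apol7b shared 72.7% with Apol7e.

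The share of Apol9a in the summed FPKM of Apol9a and Apol9b was 34.6% and 42.7% in wild type and 22.4% and 22.7% in GdX-deficient spleen at 90 min, and 31.6% and 29.1% against 24.3% at 6 h. It was lower in every GdX-deficient library than in every wild-type library. Apol10a made up 22.9% and 18.9% of its pair in wild type and 50.3% and 29.7% in GdX-deficient spleen at 90 min. At 6 h it made up 2.92% and 3.86% against 11.6%, so that the percent share moved most in this pair. By profile distance Apol11a and Apol11b lay further apart (0.90) than Apol10a and Apol10b (0.83). Apol11a never exceeded 3.21% of its pair. Since fragments are not split by strain in these values, and the globin copies differ between the genotypes, the part of sequence differences between the mice in these shares was not tested.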

How the data were processed

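Libraries from whole-spleen RNA were read on the BGISEQ-500 platform. The labels' protocols name oligo(dT) selection or rRNA depletion without saying which was used. The submitters' processing notes name HISAT, HISAT2 2.0.4, Bowtie2, RSEM and the build GRCm38.p5, with no role or order. The authors deposited a single table of FPKM per gene, rounded to 2 decimals, as its header shows. The members and gene lists were chosen with earlier results of these data known.

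Values were used as log2(FPKM + 1). Genes whose mean FPKM reached 1 (11378 genes) entered a limma 3.58.1 model under R 4.3.3 (empirical Bayes with trend, two-sided, Benjamini-Hochberg over all genes tested, threshold 0.05) in a fit of the 4 groups, and genotype with time as a covariate in an additive fit. limma called 2 genes between genotypes at 90 min (0.0176%, 862 at an unadjusted p under 0.05), 1218 with time in wild type (10.7%) and 5 for genotype with time as a covariate (0.0439%). Comparisons with the single GdX-deficient library at 6 h have no test. Beside all 8 members, label checks and preset interferon genes, genes were named by rule: the 3 nearest profiles per member, and from each list up to 3 genes per direction with the smallest p among those called. Some genes that the rule names are not reported here. The other called genes, Apol7e and the red-cell markers were named after their values were seen. Simulated data served as a check: with no change, none of the 3 comparisons called any of 11378 genes. Of 200 genes changed by 1 on the log2 scale, 6.5% were recovered between genotypes at 90 min, 8.0% with time in wild type and 39.0% with time as a covariate. For a change of 2 the shares were 97.5%, 99.0% and 99.5%, with 21, 16 and 20 false calls. Depth was estimated from low-value steps, so fragment numbers are approximate, and they limit the low genes. Alternatives were a pseudocount of 0.1, other filters, quantile normalization, a replicate block, summed copy pairs, a fit of the compared libraries and leaving out each library.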

Additional observations from a re-analysis of the deposited data

Results flagged for a closer look

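Apol7c took opposite directions in the 2 genotypes and at the 2 times. From 90 min to 6 h its log2(FPKM + 1) differed by -1.69 in wild type and by 0.61 in GdX-deficient spleen, with no overlap of libraries in either. The genotype difference was -0.35 at 90 min and 1.94 at 6 h. The difference between these differences was not tested, because GdX-deficient spleen at 6 h has 1 library.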

How the results depend on the processing

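Of the 32 member differences, 29 had no change of sign under a pseudocount of 0.1, quantile normalization or leaving out any library. The exceptions were Apol9a between genotypes at 6 h, 0.23 against -0.35 under quantile normalization, and Apol11a with time in both genotypes. The medians over the 8 genes moved by less than 0.28, their spread within groups, in 16 of the 24 alternatives that could change them. Restricting the genes to those passing the filter on low values changed nothing, since all 8 pass it. Apol10a and Apol11a pass it only through the GdX-deficient libraries, so this is no check of the differences. At 6 h the genotype median of 1.19 became 2.13 with a pseudocount of 0.1, 0.70 with quantile normalization and 1.74 with copy pairs summed. The wild-type time median of -0.38 became -1.02 with that pseudocount and -1.15 with pairs summed. Without replicate 1 of GdX-deficient at 90 min, the 90 min genotype median was 0.56 (up to 1.05 over the libraries left out) and the GdX-deficient time median 0.62; without replicate 2 the latter was -0.10. Counts of called genes were unstable. Between genotypes at 90 min, 2 became 184 in a fit of only the 4 libraries and 2 to 169 when libraries were left out. With time in wild type, 1218 became 635 with no filter on low values (429 of them shared) and 455 to 1755 with libraries left out. With time as a covariate, 5 became 2 to 1660. The replicate block left 2 calls at 90 min and gave 2345 with time in wild type and 12 with the covariate. The deviations of same-numbered replicates correlated at 0.77 between wild type at 90 min and 6 h, and at -0.12 and 0.08 between the other pairs of groups. The labels tie the numbers to no shared animal, batch or day, so they were not treated as pairs. A crossed block at 90 min, chosen after seeing the data, gave 2 calls. The cause of these shifts was not tested. Depth limits Apol11a, Apol9a and Apol10a most, with as few as 2, 18 and 9 estimated fragments in a library.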

Other observations

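Apol6, the family gene farthest from the cluster on chromosome 15, was below the filter and was not tested. It stood at 0.41 and 0.15 FPKM in wild type and 0.19 and 0.15 in GdX-deficient spleen at 90 min, and at 1.12 and 1.01 against 0.85 at 6 h. All 3 libraries at 6 h were above all 4 at 90 min. Apold1, an endothelial early-response gene named for a related domain, lies on chromosome 6. It stood at 20.99 and 18.19 FPKM in wild type and 10.31 and 3.98 in GdX-deficient spleen at 90 min, then at 3.40 and 3.26 against 1.24 at 6 h. On the log2(FPKM + 1) scale it fell by 2.25 with time in wild type (SE 0.39, adjusted p = 0.0104, limma, but 0.0603 with no filter on low values). Between genotypes at 90 min its difference was -1.45 (SE 0.39, adjusted p = 0.52, and 0.0404 or 0.0365 without wild-type replicate 1 or 2 at 6 h, and 0.0267 in a fit of only the 4 libraries), opposite in sign to that of 6 of the 8 genes of the cluster. The difference was -0.86 (adjusted p = 0.999) without GdX-deficient replicate 2 and -2.04 (adjusted p = 0.105) without replicate 1. With time as a covariate it was -1.25 (adjusted p = 0.101, and 0.0215 without GdX-deficient replicate 1 at 90 min).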
